A study of Rattus norvegicus with 12 samples.

Results

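The genes described here are 7 components of the circadian clock: the activators Bmal1, Npas2 and Clock, the nuclear receptor gene Rora, the repressor gene Nfil3 and the cryptochromes Cry1 and Cry2. They were taken by name, as every probe set whose single gene symbol in the platform annotation was one of these symbols. That gave 12 of 31042 probe sets and 7 of 14217 annotated genes: 4 probe sets for Clock, a pair each for Rora and Cry2, and 1 each for Bmal1, Npas2, Nfil3 and Cry1. One probe set of Clock fell below the filter on low signals, which left 11 for testing.

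The samples were gastrocnemius muscle, from the calf. All rats were male Wistar-Hannover and had the left sciatic nerve cut, so every group was denervated and innervated muscle was not analysed here. Rats in the vehicle day 7 and nandrolone day 7 groups were dosed for 7 days from surgery, and those in the vehicle day 35 and nandrolone day 35 groups were dosed for 7 days from 29 days after it. Nandrolone is an anabolic androgen. Each of the 4 groups held 3 arrays. The labels number them but do not say that each came from a different rat, so p-values measure only the spread between these samples, which may be technical. The dose, the rats' ages and the hour at which muscle was taken are not given in the sources used here, and time after nerve section and age cannot be told apart. Clock transcripts vary with the hour of the day, so a difference between groups in the hour of collection and a difference in time after nerve section cannot be told apart either, in any day 35 against day 7 value given here. In nandrolone against vehicle at each day, and in the interaction, a difference in that hour and a difference in treatment likewise cannot be told apart.

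The clock is a transcriptional loop. BMAL1 pairs with CLOCK, or with its relative NPAS2, and the pair binds E-box sequences to activate the period and cryptochrome genes, whose proteins then inhibit the pair. RORα and the REV-ERB receptors, encoded by Nr1d1 and Nr1d2, compete for shared elements in the Bmal1 promoter, where ROR activates and REV-ERB represses. NFIL3 represses genes that hold a D-box, an element that DBP, TEF and HLF activate, and in skeletal muscle the clock is known to drive daily rhythms of metabolic genes.

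The Bmal1 promoter is shown because it carries the elements through which Rora and the Nr1d genes are known to act on it. It spans chr1:176766078-176766377 on the plus strand of GRCr8 in RefSeq, from 250 bases before to 50 bases after the start of the gene. Capitals mark each match to AAAGTAGGTNA, the ROR and REV-ERB element. Its letters were read from the pair of copies in this promoter, with N where they differ, and then searched on both strands of all promoters.
Bmal1 promoter: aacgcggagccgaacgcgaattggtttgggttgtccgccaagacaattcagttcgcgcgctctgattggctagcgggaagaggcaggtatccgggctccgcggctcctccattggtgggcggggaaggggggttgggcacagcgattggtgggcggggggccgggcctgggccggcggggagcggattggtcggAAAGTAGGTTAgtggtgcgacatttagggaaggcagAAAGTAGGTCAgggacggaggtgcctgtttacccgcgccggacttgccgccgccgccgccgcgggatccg

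The matches begin 56 and 20 bases before the start of the gene. Since the letters were read from the Bmal1 promoter, a match there was fixed in advance. The element was present in 12 of 33469 RefSeq promoters of the same length, or 0.0359%. The shorter half-site AGGTCA, which overlaps the second match, was in 16.2% of them, and among the 6 members with a promoter sequence (Cry1 had none in the table) it was found in Bmal1 alone. No member promoter held CACGTG, the E-box, which 6.42% of all promoters hold, or any of the D-box spellings TTATGTAA, TTACGTAA and TTATGCAA, held by 0.893%, 0.12% and 0.863%. A missing match says only that these letters are not in this window.

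On the target side, the bases around a motif are shown for genes of the clock list whose promoter held one and whose values are given below. Capitals mark matches to the letters of the E-box, or, in Per2, of a D-box. BMAL1 with CLOCK or NPAS2 is known to bind the E-box, and NFIL3 and DBP to compete at the D-box. Binding at these sites was not measured, and the Nr1d1 window comes from the second listed promoter of that gene. The windows lie at chr4:180569383-180569418 (minus strand), chr7:115206614-115206649 (plus), chr10:84229625-84229660 (minus) and chr9:99497163-99497200 (minus) of GRCr8, and the motifs begin 48, 198, 191 and 192 bases before the gene starts.
Bhlhe41: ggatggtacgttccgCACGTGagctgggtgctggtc
Tef: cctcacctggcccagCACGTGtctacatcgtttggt
Nr1d1: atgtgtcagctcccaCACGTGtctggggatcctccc
Per2: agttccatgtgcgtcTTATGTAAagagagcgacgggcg
Of the 17 listed clock genes with a promoter sequence, 6 held the E-box and 1 held a D-box.

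Values below are log2(signal + 16) after quantile normalization unless a deposited signal is named, a difference is day 35 minus day 7 or nandrolone minus vehicle on that scale, and ± is the SD of 3 arrays for a level and the standard error from limma for a difference. The 16 added to each signal makes the differences of dim probe sets smaller than they would be on the signal itself. All 10 skeletal muscle fibre markers, among them Ckm and Acta1, were bright on each array, with a lowest deposited signal of 2294.3. Median deposited signals lay between 44.8 and 63.5 on 11 arrays and at 111.05 on nandrolone day 35 replicate 3. That array also had the lowest mean correlation with its group, an r of 0.937 over probe sets, and the highest levels of adipocyte, Schwann cell and smooth muscle markers. Their summed signals after normalization there were 13091, 10436 and 11672, against at most 2781, 2011 and 2208 in the other 3 groups. Leaving it out ended none of the calls given for the members.

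Between day 7 and day 35 in vehicle rats, Bmal1, Npas2 and Nfil3 fell and Cry2 rose, while Clock, Rora and Cry1 did not pass the test. Of the 11 tested probe sets 3 were called lower and 1 higher at an adjusted p under 0.05. Over all 18626 tested probe sets 2.17% were called lower and 3.44% higher, 5.61% in all, or 641 higher and 404 lower, against 148 higher and 44 lower on the deposited scale. The median difference of the 11 was -0.66, against -0.0045 over all tested probe sets, whose quartiles were -0.30 and 0.29. The arrays of the 2 days did not overlap in 5 of the 11, as in 35.3% of all probe sets. These are whole-muscle samples, in which fewer cells of a type and less RNA per cell cannot be told apart.

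**Figure D1:**
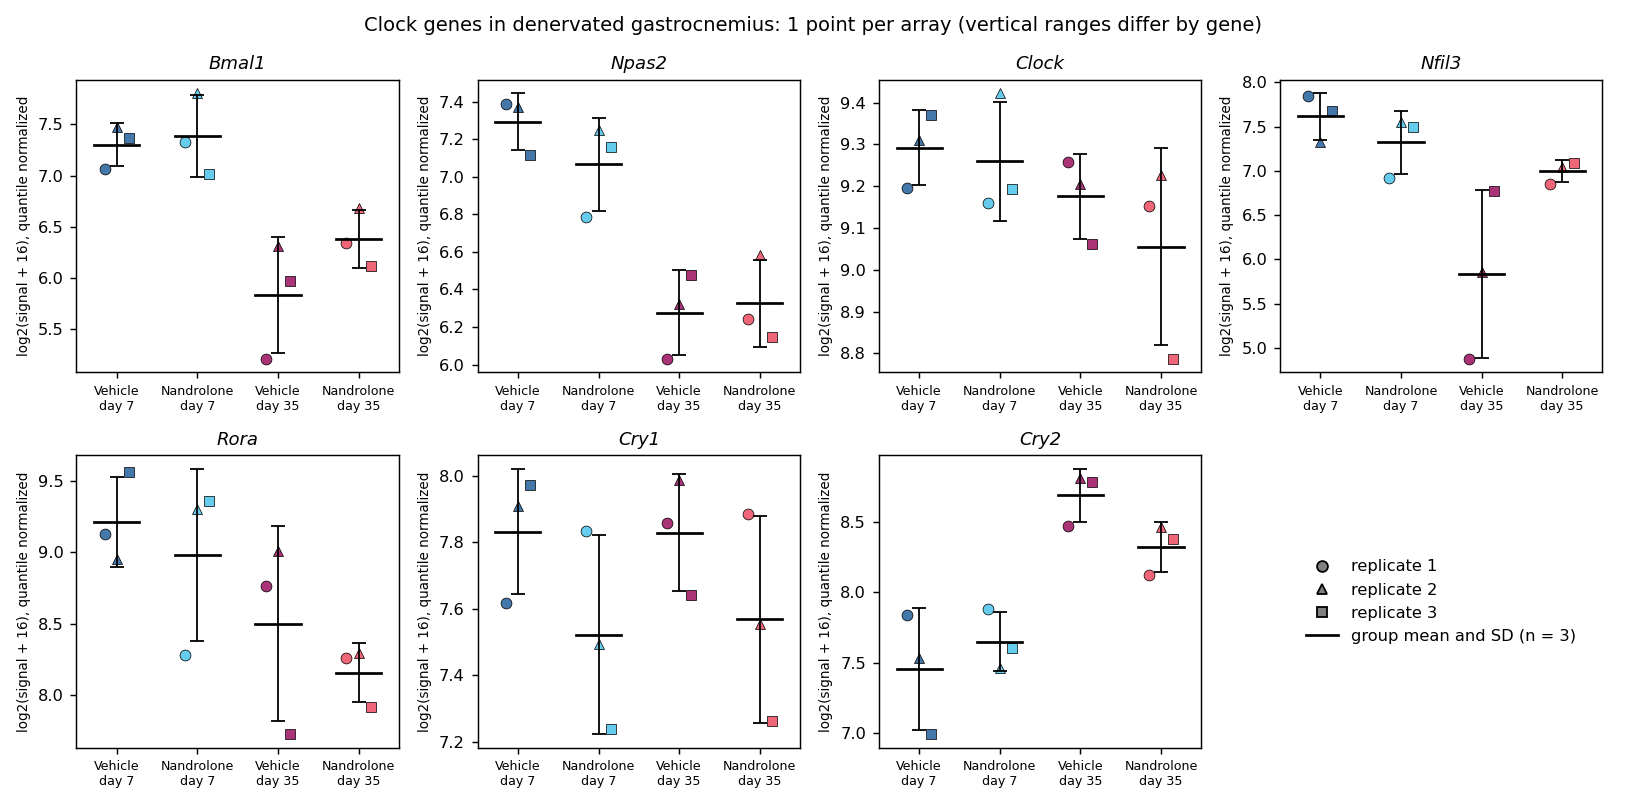
Level of each gene on each array, as log2(signal + 16) after quantile normalization on the vertical axis (ranges differ by gene) and the 4 groups on the horizontal axis; points are arrays, horizontal bars group means and vertical bars the SD of 3 arrays. In Bmal1, Npas2 and Cry2 the 6 arrays of one day lie apart from the 6 of the other, and in Nfil3 the vehicle day 35 arrays spread from 4.88 to 6.78.

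Bmal1, the activator without which the loop does not cycle, stood at 7.06, 7.47 and 7.37 in vehicle day 7 replicates 1 to 3. In vehicle day 35 it stood at 5.21, 6.31 and 5.97. All 3 day 35 arrays lay below all 3 day 7 arrays, and replicate 1 was the lowest of the 12. The difference was -1.47 ± 0.29, a 2.77-fold fall (adjusted p = 0.0171), and the deposited signal ranged from 109.3 to 136.1 at day 7 and from 18.9 to 50.8 at day 35. In nandrolone day 7 the levels were 7.33, 7.81 and 7.01, and in nandrolone day 35 they were 6.34, 6.68 and 6.12. These arrays separated by day as well, with a difference of -1.003 ± 0.29 that did not pass over all probe sets (unadjusted p = 0.0048, adjusted p = 0.142). Averaged over both treatments Bmal1 fell by 1.24 ± 0.21 (adjusted p = 0.00349), with the 6 day 35 arrays below the 6 day 7 arrays.

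Npas2, which can replace CLOCK as the partner of BMAL1, stood at 7.39, 7.37 and 7.12 in vehicle day 7 and at 6.03, 6.32 and 6.47 in vehicle day 35. The days did not overlap, and replicate 1 of the later group was again the lowest of the 12 arrays. Npas2 fell by 1.02 ± 0.21, or 2.02-fold (adjusted p = 0.0181). Its deposited signal ranged from 112.5 to 139.5 at day 7 and from 42.9 to 80 at day 35. In nandrolone rats it went from 6.79, 7.25 and 7.16 to 6.25, 6.58 and 6.15, with no overlap and a difference of -0.74 ± 0.21 that did not pass (unadjusted p = 0.00345, adjusted p = 0.124). Averaged over both treatments it fell by 0.88 ± 0.15 (adjusted p = 0.00335).

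Clock, which encodes the constitutive partner of BMAL1, showed no call in any comparison. Its brightest probe set stood at 9.19, 9.31 and 9.37 in vehicle day 7 and at 9.26, 9.21 and 9.06 in vehicle day 35, with overlapping arrays. The difference was -0.12 with a 95% interval from -0.47 to 0.24 under vehicle and -0.20 with an interval from -0.56 to 0.15 under nandrolone. For this probe set, neither interval includes the difference of Npas2 under the same treatment. Clock and Npas2 were not compared by a test. A second probe set gave -0.20 and -0.31 and another -0.76 and -0.17, the last with standard errors of 0.50. The intervals of that last one, from -1.85 to 0.33 and from -1.27 to 0.92, do include the differences of Npas2. The fourth had deposited signals between 2.2 and 33.9 and was not tested. The 4 correlated only loosely with each other over the 12 arrays, with r from 0.13 to 0.57, a description over arrays that share group and processing.

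Rora, the activating receptor at the elements of the Bmal1 promoter shown above, had a pair of probe sets that moved alike (r = 0.74 over the 12 arrays). The brighter stood at 9.13, 8.95 and 9.56 in vehicle day 7 and at 8.77, 9.01 and 7.72 in vehicle day 35, and in nandrolone rats at 8.28, 9.30 and 9.36 and then at 8.26, 8.29 and 7.91. The days overlapped in vehicle rats and just overlapped in nandrolone rats. Its difference was -0.72 ± 0.35 under vehicle and -0.83 ± 0.35 under nandrolone, and -0.77 ± 0.25 averaged over both (adjusted p = 0.0581), so it did not pass. The dimmer probe set was called lower in that average, at -0.79 ± 0.22 (adjusted p = 0.032), and stood at -0.66 ± 0.31 under vehicle and -0.93 ± 0.31 under nandrolone (adjusted p = 0.217 and 0.194). Its deposited signal at nandrolone day 35 was 17.2, 49.7 and 14.6, close to the 16 that was added. The call of the dimmer probe set ended on the deposited scale (adjusted p = 0.0971), with no filter (0.0565) and without any 1 of 7 arrays, namely vehicle day 7 replicates 1, 2 and 3, nandrolone day 7 replicate 2, vehicle day 35 replicates 1 and 3 and nandrolone day 35 replicate 1 (adjusted p from 0.0538 to 0.0832). The brighter one gained a call without nandrolone day 7 replicate 1 (-0.94, adjusted p = 0.0228) or vehicle day 35 replicate 2 (-0.90, 0.0392), with median centring (0.0482), with array weights (0.0149) and at a threshold of 0.10. The mean over both probe sets was called as well (-0.78, adjusted p = 0.0232).

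Nfil3, the D-box repressor, stood at 7.85, 7.33 and 7.67 in vehicle day 7 and at 4.88, 5.85 and 6.78 in vehicle day 35. All later arrays lay below all earlier ones, with a wide spread among them (SD 0.95), and replicate 1 was the lowest of the 12, as it was for Bmal1 and Npas2. Nfil3 fell by 1.78 ± 0.37, or 3.43-fold (adjusted p = 0.0196). Its deposited signal ranged from 118.4 to 198.8 at day 7 and read 12.1, 33.5 and 104.7 at day 35. In nandrolone day 7 it stood at 6.92, 7.56 and 7.49 and in nandrolone day 35 at 6.85, 7.04 and 7.09. Those groups overlapped, and the difference was -0.33 ± 0.37, with a 95% interval from -1.13 to 0.48. Averaged over both treatments Nfil3 fell by 1.05 ± 0.26 (adjusted p = 0.0223), a call that ended without vehicle day 7 replicate 1 or 3 or nandrolone day 7 replicate 2 (adjusted p = 0.0561, 0.0536 and 0.0591) and on the deposited scale (-0.86, 0.165). Macrophage markers were lower at day 35 in vehicle rats in 8 of 8 tested genes with no overlap. Non-overlap in either direction was found in 35.3% of all probe sets, and limma called none of these markers. Their summed signal after normalization ranged from 3385 to 4318 in vehicle day 7 and from 1854 to 2413 in vehicle day 35. In nandrolone rats the range was 2533 to 9232 at day 7 and 2254 to 5592 at day 35. None of the 9 markers was listed at 0, and their part in the result for Nfil3 was not tested.

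Of the cryptochromes, which inhibit the BMAL1 pair, Cry2 was called by its brighter probe set and Cry1 was not called. No test compared them. Cry2 stood at 7.84, 7.54 and 6.99 in vehicle day 7 and at 8.47, 8.81 and 8.78 in vehicle day 35. It rose by 1.23 ± 0.22, or 2.35-fold (adjusted p = 0.0114), with no overlap. In nandrolone rats it went from 7.88, 7.47 and 7.60 to 8.12, 8.46 and 8.38, again with no overlap, and the difference of 0.67 ± 0.22 did not pass (unadjusted p = 0.0107, adjusted p = 0.199). Averaged over both treatments Cry2 rose by 0.95 ± 0.16 (adjusted p = 0.00342). A second, dimmer probe set of Cry2 did not follow the first (r = 0.050 over the 12 arrays): its deposited signal ran from 4 to 124.5, its arrays overlapped, and its differences were 0.29 ± 0.61 and 0.55 ± 0.61. With the mean over both probe sets the rise was 0.76 under vehicle (adjusted p = 0.158) and 0.69 averaged over both treatments (adjusted p = 0.0553), so the call of Cry2 rests on its brighter probe set.

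Cry1 stood at 7.62, 7.91 and 7.97 in vehicle day 7 and at 7.86, 7.99 and 7.64 in vehicle day 35, with overlapping arrays. In nandrolone rats it stood at 7.83, 7.49 and 7.24 and then at 7.89, 7.55 and 7.26. The difference was -0.0034 with a 95% interval from -0.47 to 0.46 under vehicle and 0.046 with an interval from -0.42 to 0.51 under nandrolone. Neither interval includes the rise of the brighter Cry2 probe set in vehicle rats. The interval under vehicle does include the 0.29 of the dimmer Cry2 probe set under vehicle.

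**Figure D2:**
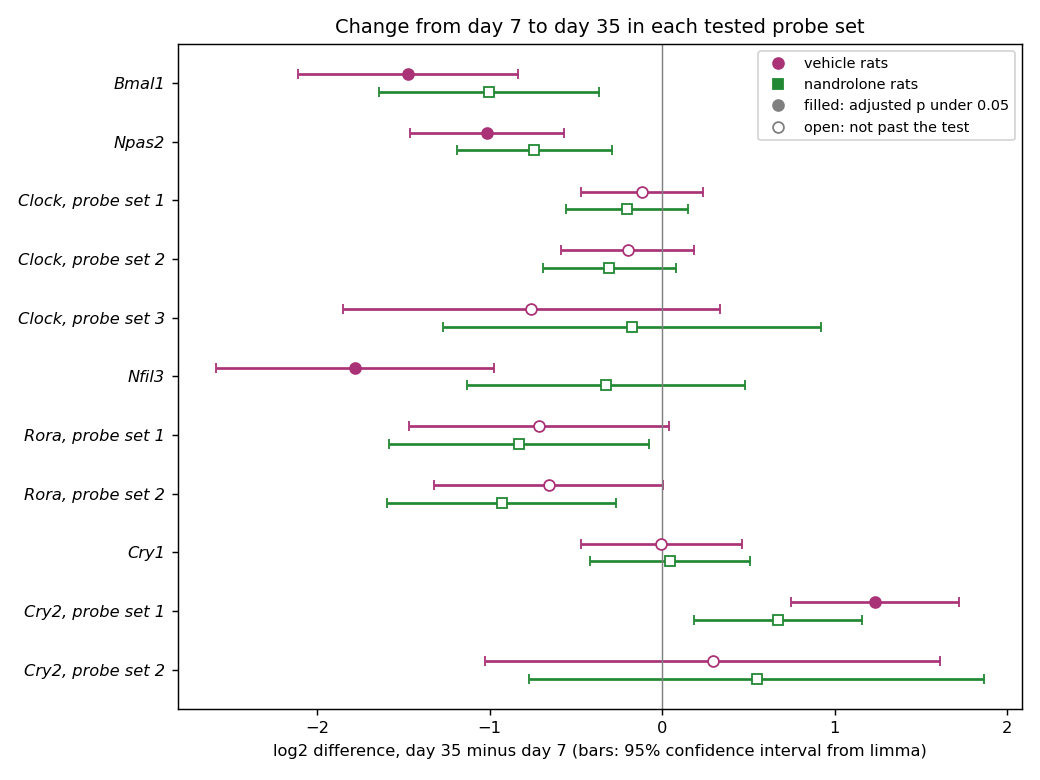
Difference between day 35 and day 7 on the log2 scale (horizontal axis) for each of the 11 tested probe sets (vertical axis), in vehicle rats (circles) and nandrolone rats (squares), with 95% intervals from limma; filled symbols passed an adjusted p of 0.05. The 4 filled symbols are those of Bmal1, Npas2, Nfil3 and the brighter Cry2 probe set in vehicle rats.

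The 3' to 5' ratio of the actin control probe sets, which reflects RNA quality, was 2.81, 2.11 and 2.25 in vehicle day 7 and 3.13, 2.68 and 3.71 in vehicle day 35, and its part in the 4 calls was not tested. These calls were near the threshold, and each of the 4 ended when certain single arrays were left out. Leaving out vehicle day 7 replicate 3 ended all 4. Bmal1 lost its call without vehicle day 7 replicate 2 (-1.40, adjusted p = 0.0736), without replicate 3 (-1.44, 0.0714) and without vehicle day 35 replicate 1 (-1.16, 0.0633). Npas2 lost its call without vehicle day 7 replicate 1, 2 or 3 (adjusted p = 0.0651, 0.0745 and 0.0521) and without vehicle day 35 replicate 1 (0.0768). Nfil3 lost its call without the same arrays (adjusted p = 0.0719, 0.0576, 0.08 and 0.0601), with a difference of -1.30 without vehicle day 35 replicate 1. Cry2 lost its call without vehicle day 7 replicate 3 (1.00, adjusted p = 0.0541). On the deposited scale, without normalization, the differences were -1.40, -0.95, -1.67 and 1.33 and none passed (adjusted p = 0.0616, 0.178, 0.11 and 0.0647). In the average over both treatments Bmal1 passed under all 22 alternatives run for it, and Npas2 and Cry2 each failed in 1.

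In that average 4 member probe sets were called lower and 1 higher, against 6.07% and 6.49% of all probe sets, or 12.6% in all (1208 higher and 1130 lower, against 670 and 283 on the deposited scale). The median difference of the 11 was -0.47, against -0.0082 over all tested probe sets. The 6 arrays of one day lay apart from the 6 of the other in 3 of the 11, namely Bmal1, Npas2 and the brighter Cry2 probe set, and in 6.6% of all probe sets. In nandrolone rats alone none of the 11 was called, where limma called 0.676% of all probe sets, and 5 of the 11 had an unadjusted p under 0.05, against 14.5% of all. Those 5 were Bmal1, Npas2, both probe sets of Rora and the brighter one of Cry2. Without nandrolone day 35 replicate 2 the dimmer probe set of Rora passed (-1.27, adjusted p = 0.0494), and without nandrolone day 35 replicate 3 it stood at -0.59.

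**Figure D3:**
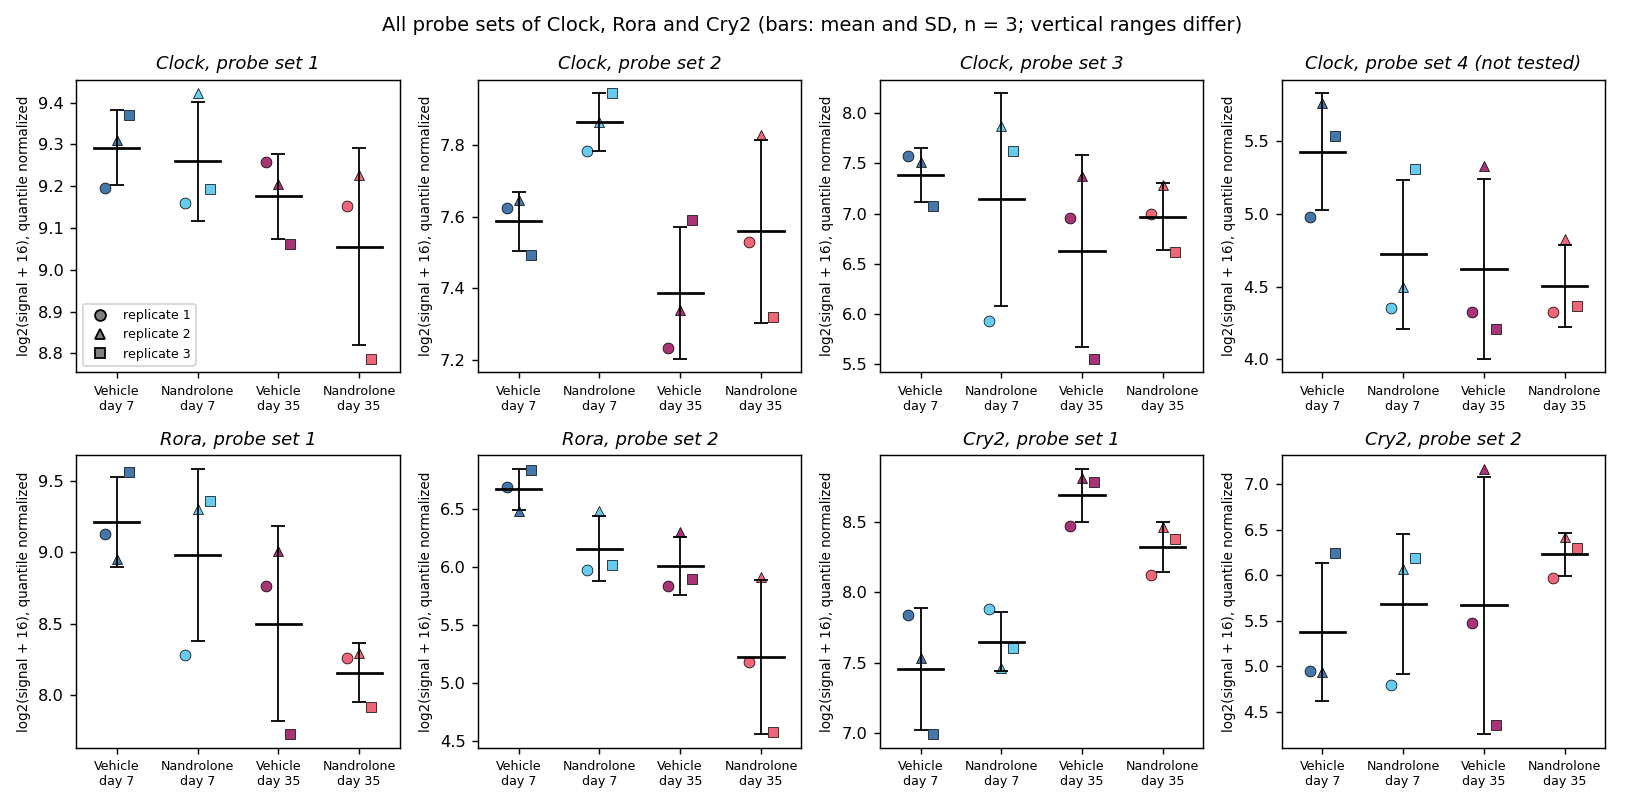
Level on each array, as log2(signal + 16) after quantile normalization on the vertical axis (ranges differ by panel), for every probe set of Clock, Rora and Cry2 in the 4 groups on the horizontal axis; points are arrays and bars the mean and SD of 3 arrays. The pair for Rora runs in the same order of group means, while of the Cry2 pair only the brighter Cry2 probe set separates the days.

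The second question of the design was how nandrolone differed from vehicle. No member was called at either day, and limma called 0% of all probe sets at day 7 and 0% at day 35, with 1.78% and 8.54% at an unadjusted p under 0.05. At day 7 none of the 11 member probe sets reached an unadjusted p under 0.05. Their differences lay between -0.51 and 0.31. Groups did not overlap in 2 of the 11, as in 7.66% of all: the second Clock probe set was higher under nandrolone by 0.28 ± 0.18 and the dimmer Rora probe set lower by 0.51 ± 0.31.

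At day 35 the levels of Nfil3 under nandrolone, 6.85, 7.04 and 7.09, all lay above those under vehicle, 4.88, 5.85 and 6.78. The difference of 1.16 ± 0.37 had an unadjusted p of 0.0084 and failed the adjustment over all probe sets (adjusted p = 0.562). Without vehicle day 35 replicate 1 it was 0.68. The dimmer Rora probe set was lower by 0.78 ± 0.31 (unadjusted p = 0.0242, adjusted p = 0.562), with arrays that overlapped. The brighter Cry2 probe set was lower in all 3 nandrolone arrays, by 0.37 ± 0.22 (adjusted p = 0.59). The dimmer Cry2 probe set was higher by 0.56 ± 0.61, and the mean over both gave 0.097. Bmal1 was higher by 0.55 ± 0.29 with overlap (adjusted p = 0.569), and Npas2 differed by 0.049 with a 95% interval from -0.40 to 0.50. Non-overlap at this day was found in 2 of the 11 and in 11.6% of all probe sets. The actin ratio given above for vehicle day 35 was 2.57, 2.12 and 1.90 in nandrolone day 35, all below the vehicle arrays, and its part in these differences was not tested.

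Whether the change over time differed between the treatments was tested as the interaction, in which limma called 0% of all probe sets and 4% had an unadjusted p under 0.05. Among the members Nfil3 had the largest value, 1.45 ± 0.53, which stands for a fall smaller by that amount under nandrolone (unadjusted p = 0.0165, adjusted p = 0.929). For Bmal1 it was 0.47 with a 95% interval from -0.43 to 1.37 and for Npas2 0.28 from -0.36 to 0.91. For the brighter Cry2 probe set it was -0.56 from -1.25 to 0.13, and for the dimmer one 0.25 ± 0.86. The calls made in vehicle rats and missed in nandrolone rats are therefore not shown to differ between the treatments.

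In order of level, Bmal1 was highest in nandrolone day 7, then vehicle day 7, nandrolone day 35 and vehicle day 35. Npas2 and Nfil3 were highest in vehicle day 7, followed by nandrolone day 7, nandrolone day 35 and vehicle day 35, and Cry2 ran in the reverse of that order. Both probe sets of Rora went from vehicle day 7 through nandrolone day 7 and vehicle day 35 to nandrolone day 35. Neighbours in these orders that shared a day or a treatment did not differ past the test.

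Among other genes of the loop, those that passed the test were higher at day 35, where Bmal1 was lower. Of 14 tested genes in the list of clock repressors, outputs and partners, 6 were called higher at day 35 in vehicle rats. In nandrolone rats 3 were called higher and in the average 6, with none lower in any of these comparisons. Each listed gene is given by its brightest probe set alone. Over all probe sets 3.44% were called higher and 2.17% lower under vehicle, 0.676% in all under nandrolone, and 6.49% and 6.07% in the average. The median difference of the list was 0.81, 0.33 and 0.60 in these comparisons. The period genes Per2 and Per3, which act with the cryptochromes, rose by 1.88 ± 0.20 and 1.77 ± 0.22 in the average (adjusted p = 0.000389 and 0.000854). For Per3 the rise was 2.58 ± 0.32 under vehicle (adjusted p = 0.00192), and the difference was 0.97 ± 0.32 under nandrolone, where it was not called (adjusted p = 0.193). Its interaction was -1.61 ± 0.45 (unadjusted p = 0.00334, adjusted p = 0.929). Bhlhe41, a repressor that binds the E-box, rose by 1.39 ± 0.13 (adjusted p = 2e-04), and Dbp and Tef, the activators that oppose NFIL3 at the D-box, by 1.28 ± 0.18 and 0.76 ± 0.17 (adjusted p = 0.00141 and 0.0146).

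Of the REV-ERB genes, whose proteins repress Bmal1 at the elements printed above, Nr1d2 rose by 0.84 ± 0.093 (adjusted p = 0.000425). It stood between 10.43 and 10.62 on the 6 day 7 arrays and between 11.21 and 11.54 on the 6 day 35 arrays. Nr1d1 did not pass, at 0.30 ± 0.20 (adjusted p = 0.34), and its arrays overlapped. Vehicle day 35 replicate 1, the lowest array for Bmal1, Npas2 and Nfil3, was at the same time the highest of the 12 for Per2, at 9.37. It stood at 11.06 for Dbp, where nandrolone day 35 replicate 1 was slightly higher at 11.14. Vehicle day 35 replicate 1 was also the highest of the 12 for Tef, at 10.34. Within vehicle day 35 it was the highest array for Nr1d2 (11.44). There it was the lowest for Bhlhe41 (10.41, against 10.75 in both others) and for Nr1d1 (9.54, against 9.92 and 10.46). The brighter Cry2 probe set was lowest on it within that group as well (8.47).

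**Figure D4:**
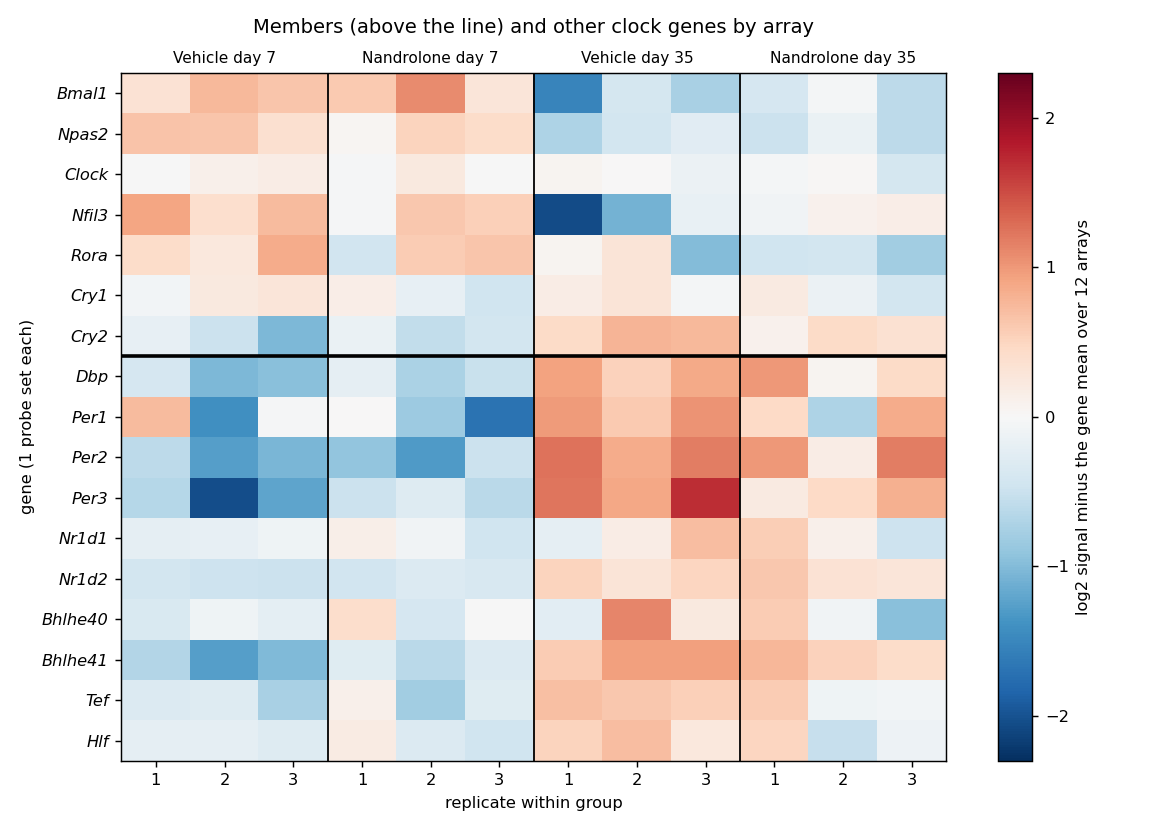
Level of the 7 genes (above the line) and of 10 other clock genes (below) on each of the 12 arrays, as log2 signal minus the gene's mean over all arrays (colour), with genes as rows and replicates within groups as columns. Bmal1, Npas2 and Nfil3 are above their means on nearly all day 7 arrays, and Per2, Per3, Dbp, Nr1d2 and Bhlhe41 on the day 35 arrays.

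Of 13 genes that the clock is known to drive in muscle or liver, 3 were called higher and 2 lower in the average over both treatments. Their median difference was 0.0073, and over all probe sets 6.49% were called higher and 6.07% lower. Myod1, the myogenic factor, rose by 0.71 ± 0.15 (adjusted p = 0.00872) and Ucp3, a mitochondrial carrier, fell by 0.66 ± 0.14 (adjusted p = 0.0119). The difference of Ucp3 was -0.24 ± 0.20 under vehicle (adjusted p = 0.518) and -1.07 ± 0.20 under nandrolone (adjusted p = 0.0378), with an interaction of -0.84 ± 0.28 (unadjusted p = 0.0118, adjusted p = 0.929). Nandrolone against vehicle at day 35 gave -1.07 for Ucp3 (unadjusted p = 0.000158, adjusted p = 0.268). In vehicle rats alone 2 of the 13 were called higher and none lower, and in nandrolone rats none was called higher and 1 lower. Over all probe sets the shares were 3.44% higher and 2.17% lower under vehicle, and 0.676% in all under nandrolone.

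The probe sets with a level pattern most like Bmal1 over the 12 arrays, by Pearson correlation, were those of Pals2 (r = 0.96), Zdhhc3 (0.95) and Sh3glb1 (0.95). Those nearest to its opposite were Tnrc6c (r = -0.96), Per2 (-0.94) and Wrn (-0.94). For Npas2 they were Smim13, Rhobtb3 and Jtb (all r = 0.97), and for Nfil3 Pcgf6 (0.92), Slbp (0.91) and Rap2c (0.90). Cry2 was most like Cst3 (0.94), Kat6b (0.93) and Sun2 (0.93), Rora like Slc35b4 (0.97), Ube2g2 (0.92) and LOC100912031 (0.91), Clock like Rchy1 (0.97), Cfl2 (0.93) and Exoc6 (0.93), and Cry1 like Slc30a2 (0.93), Utp6 (0.91) and Kcnj12 (0.91). These are the extremes of 14315 to 14317 probe sets compared with each member, on arrays that fall into 4 groups, and are given as a description.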

How the data were processed

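Gene expression was measured with 1-colour Affymetrix arrays, 1 per sample. The deposited table gives 1 intensity per probe set and array on a linear scale, and the submitters' processing notes name MAS5, with version, scaling target and detection filter not given in the sources used here. Array medians differ, so the intensities carry no common scale. The 12 columns of per-sample values in a second deposited table have no key to the samples and were not used.

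From these intensities 57 control probe sets were left out, 16 was added, log2 taken and the arrays quantile normalized. Probe sets in the lowest 40% by mean level were not tested, which left 18626. Groups came from the labels, and limma 3.58.1 (R 4.3.3, eBayes with an intensity trend) fitted 4 group means to 12 arrays with 8 residual degrees of freedom. The comparisons were: day 35 against day 7 under each treatment and averaged, nandrolone against vehicle at each day, and their interaction. P-values were adjusted by Benjamini-Hochberg over all tested probe sets, with calls at 0.05. For single values, an exact two-sided permutation test of 3 against 3 cannot go below 0.1, so the fit across all probe sets was used. The number of arrays limits the precision. The fitting procedure was tested on simulated data, with 100 changes of each size in day 35 against day 7 under vehicle. It called 35 of those of log2 size 1 and 90 of those of log2 size 2.

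Gene names came from the platform annotation: 20826 probe sets had 1 gene, 436 several and 9780 none, and for 20758 of the first the RefSeq table (GRCr8) held the gene ID. For genes with several probe sets, the one with the highest mean level is called the brighter one. It stands for the gene in likeness, in group order and in the lists of other genes and markers. Further probe sets of listed genes, among them Per2, Per3, Nr1d2, Tef and Ucp3, are not described here. All members were named, with Nr1d1 and the 8 other genes of smallest p in the averaged comparison. These 8 came from the lists of clock genes and of genes that the clock is known to drive. The members and lists were chosen with earlier results of these data known. No 2 arrays held identical values. Same-numbered arrays of the nandrolone groups deviated together (r = 0.16, 0.26 and 0.42 over probe sets), so their numbers count as pairs by the rule that every r exceed 0.1. Rats killed at day 7 cannot be those killed at day 35, so the numbers do not pair animals. No other groups met the rule, and the labels name no shared rat or batch. Alternatives changed the normalization, the added constant, the filter, the trend, array weights, the threshold, the replicate block, the groups fitted, the treatment of several probe sets and each array in turn.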

Additional observations from a re-analysis of the deposited data

Results flagged for a closer look

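The change of Nfil3 from day 7 to day 35 differed between treatments at an unadjusted level, by 1.45 ± 0.53 on the log2 scale (nandrolone minus vehicle, 95% interval 0.31 to 2.59, limma unadjusted p = 0.0165, adjusted p = 0.929). It was singled out because the test of the difference between the treatments itself passed before adjustment. It failed adjustment over all probe sets, of which 4% had an unadjusted p under 0.05. The value kept its sign in all 23 alternatives run for it, between 0.92 and 1.93, and was 0.97 without vehicle day 35 replicate 1.

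The same test passed before adjustment for 3 other clock genes named in the text. The interaction was -1.61 ± 0.45 for Per3 (unadjusted p = 0.00334), -0.83 ± 0.27 for Bhlhe41 (unadjusted p = 0.00858) and -0.84 ± 0.28 for Ucp3 (unadjusted p = 0.0118), each with an adjusted p of 0.929 in limma. Bhlhe41 rose under both treatments, by 1.80 under vehicle and 0.97 under nandrolone (adjusted p = 0.00133 and 0.0416).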

How the results depend on the processing

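The calls of Bmal1, Npas2 and Nfil3 under vehicle ended on the deposited scale and without single arrays, and that of Cry2 also with the mean over its probe sets. On the deposited scale limma called 192 probe sets over time under vehicle (148 higher, 44 lower, 0 members), 15 under nandrolone and 953 averaged over treatments (670 higher, 283 lower, 2 members), and the median of all probe sets for nandrolone at day 35 was 0.26 there, against -0.038 after quantile normalization, a shift of 0.30. Under vehicle, under nandrolone and averaged, the counts were 5274, 293 and 4570 with array weights and 2061, 291 and 3698 at an adjusted p of 0.10, and array weights called 49 for nandrolone at day 35. Under nandrolone 73 were called with no filter and 59 with no intensity trend. With the lowest 60% of probe sets left out, 2 members were called under vehicle and 2 in the average, since Bmal1, Npas2 and the dimmer Rora probe set were no longer tested. With only the groups compared, limma called 2544 under vehicle and 0 under nandrolone (1712 at an unadjusted p under 0.05), and 0 under nandrolone with the replicate block (2600).

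The replicate block in the fit of all groups gave 1294, 128 and 2625 calls under vehicle, under nandrolone and averaged, with 4, 0 and 5 members, and 0 for nandrolone at each day and the interaction. It changed no member's call.

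Leaving out each array in turn gave 178 to 2034 calls under vehicle (0 to 4 members), 0 to 263 under nandrolone (0 to 1), 1359 to 2676 averaged (3 to 6), 0 to 1 for nandrolone at either day, and 0 for the interaction. The 2034 came without nandrolone day 35 replicate 3, an alternative chosen after seeing the data, and the 178 without vehicle day 7 replicate 2.

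Values that changed sign were uncalled. On the deposited scale they were Cry1 under vehicle (0.081), Clock and, at day 35, Cry1 for nandrolone (Clock 0.12 at day 7 and 0.16 at day 35, Cry1 0.070) and the interaction of Clock (0.040) and Rora (0.067). With median centring they were Cry1 under vehicle (0.070), Clock for nandrolone at day 7 (0.017) and the interaction of Cry1 (-0.040), and with array weights Cry1 (0.00091) and Clock (0.014) in the same comparisons. With the mean over probe sets they were Clock (0.00021 at day 7, 0.13 at day 35, interaction 0.13) and Cry2 (0.097 at day 35). With 1 array left out, Cry1 ran from -0.11 to 0.090 over time under vehicle, -0.11 to 0.20 under nandrolone, -0.058 to 0.099 averaged and -0.11 to 0.20 in the interaction. For nandrolone at day 7 Bmal1 ran from -0.13 to 0.27, Clock from -0.12 to 0.016, Rora from -0.42 to 0.12 and Cry2 from -0.039 to 0.39. At day 35 Npas2 ran from -0.080 to 0.15 and Clock from -0.21 to 0.014, and in the interaction Rora ran from -0.50 to 0.15 and Clock from -0.17 to 0.047. Dim signals limit the Clock, Rora and Cry2 probe sets near the added 16. They also limit Bmal1 and Nfil3 on vehicle day 35 replicate 1, where the deposited signals were 18.9 and 12.1.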
